A study of Mus musculus with 6 samples.

Results

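Memory B cells (MBC) are long-lived, resting lymphocytes that return to division or become plasma cells (PC) when they meet antigen again. Among the factors that shape them, HHEX is a homeodomain transcription factor that promotes MBC formation together with the corepressor TLE3, and SKI and its paralog SKIL (also called SnoN) are corepressors that bind SMAD proteins and damp TGF-β signaling. KLF2 is a zinc finger factor of quiescent lymphocytes, ZBTB32 restrains the recall response of MBC, and the ectoenzymes CD73 (the product of Nt5e, which makes adenosine from AMP) and CD38 (which breaks down NAD) are used to mark MBC by flow cytometry. These 8 genes, Ski, Skil, Hhex, Tle3, Klf2, Zbtb32, Nt5e and Cd38, were found by gene symbol among the 39017 genes of the count table, each on 1 row, and all 8 had enough counts to be tested.

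The RNA came from iGBs, splenic B cells that acquire a germinal center (GC)-like phenotype when grown on 40LB feeder cells, a fibroblast line that supplies CD40L and BAFF, with IL-4 added. Control iGBs were from 3 Cγ1-cre mice and Prmt1-null iGBs from 3 mice that carried Cγ1-cre and homozygous floxed Prmt1 alleles, all C57BL6/J, with 2 females and 1 male per genotype and 1 library per mouse. The age of the mice is not given in the sources used here. Both groups therefore carried Cre, which this allele expresses in activated B cells from the Ighg1 locus, and were cultured for 3.5 days before the feeder cells were depleted. The labels give 5 ng/ml IL-4, whereas the study's methods state a lower dose.

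Libraries held 45343250 to 62774232 counts on genes, and 3 counts, the smallest number taken as detected, corresponded to 0.0478 to 0.0662 CPM (the count scaled to the library total). Such floors cover counting error only. Counts were brought to a common scale by edgeR's TMM factors, which ran from 0.985 to 1.013, and are called normalized counts below. Prmt1 had 3901 to 4809 normalized counts in the Control libraries and 1469 to 1734 in the Prmt1-null libraries, a Prmt1-null mean of 36.9% of the Control mean over all its exons (log2 fold change, log2FC, of Prmt1-null over Control −1.44, with a standard error, SE, of 0.095). The 8 B cell markers checked were present in every library, with a summed level of 6425 to 7107 CPM. Fas, which marks GC B cells (GCBC), was high as well, at 5594 or more normalized counts, whereas the GCBC marker Rgs13 had no more than 189.7. Of the 8 GCBC markers 1, Mybl1, named here after its values were seen, was called lower in Prmt1-null iGBs (log2 fold change −0.50). The 10 tested of 12 feeder markers summed to 30.2 to 33.1 CPM in Control and 31.8 to 40.8 CPM in Prmt1-null libraries, with Lum and Postn at 0 throughout.

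A gene was called different at an adjusted p under 0.05 (quasi-likelihood test of edgeR, p-values adjusted by Benjamini-Hochberg over the 18268 genes tested) and a mean normalized count over 100. By this rule 1 of the 8 genes, Ski, was called, and it was lower in Prmt1-null iGBs, where 1.18% of all tested genes were called in either direction and 0.602% as lower. DESeq2 and limma-voom also called Ski alone among the 8. Over all genes they called 2.76% of 25707 and 1.36% of 18268. The DESeq2 total holds genes with any count, and so is a different set from that of edgeR. Some of its genes, such as Nt5e, got no adjusted p. None of the 8 was called higher by any of these tools, against 0.580% of all tested genes by edgeR, and none that was higher had an unadjusted p under 0.05. The 4 genes Ski, Skil, Hhex and Tle3 had an unadjusted p under 0.05, as had 13.5% of all genes, and for these 4 every Prmt1-null library lay below every Control library. Such separation of the groups was found for 19.9% of all genes. Across the 8 genes the log2FC values ran from −0.72 for Ski to 0.89 for Nt5e, with a median of −0.12 against −0.001 over all tested genes.

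**Figure D1:**
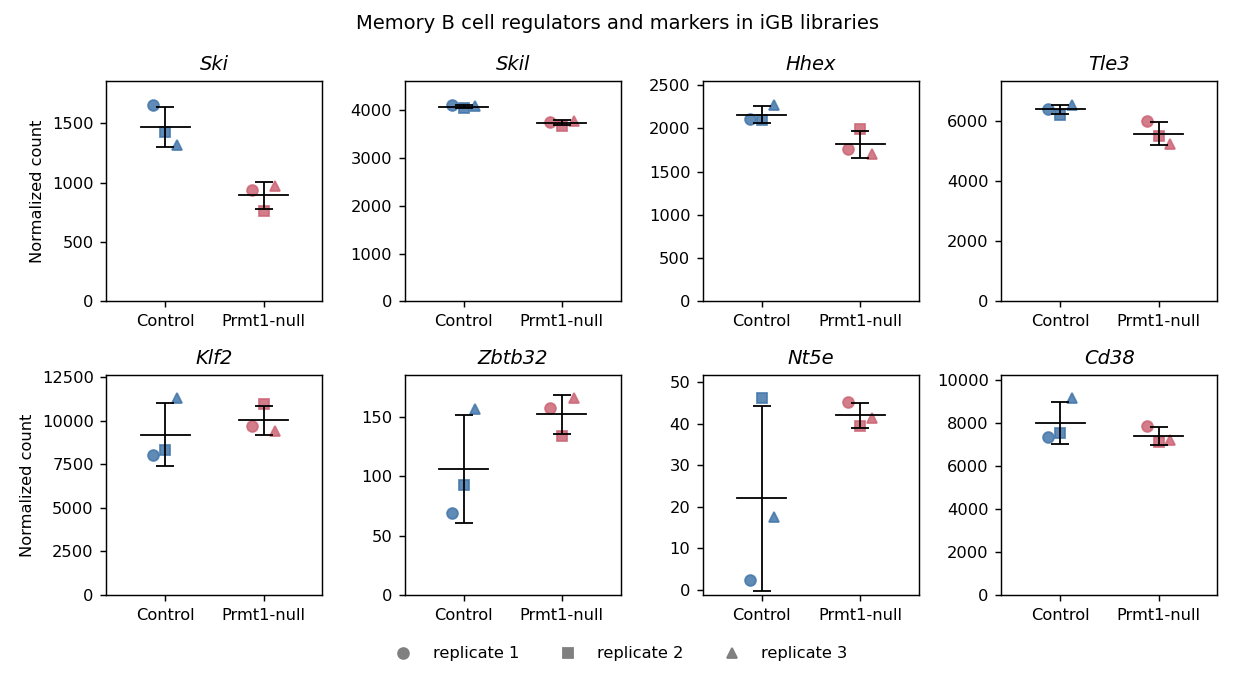
Normalized counts (vertical axes, a separate scale per gene) of the 8 genes in the 3 Control (blue) and 3 Prmt1-null (red) libraries. Symbols are replicates, long bars are means and whiskers are the SD (n = 3). The groups are apart for Ski, Skil, Hhex and Tle3 and overlap for Klf2, Zbtb32, Nt5e and Cd38.

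Ski (ENSMUSG00000029050) is a minus-strand gene of chromosome 4 (155154075 to 155222592, mm10), and as for the other 7 genes its exons overlap no other annotated gene. Control replicates 1, 2 and 3 had 1656, 1429 and 1319 normalized counts, and Prmt1-null replicates 1, 2 and 3 had 937, 764.2 and 973.4. The highest Prmt1-null library was thus below the lowest Control library, and the Prmt1-null mean was 60.7% of the Control mean. Means were 1468 ± 171.8 (SD, n = 3) and 891.5 ± 111.8 (SD, n = 3), a log2FC of −0.72 with a SE of 0.121 and a 95% interval from −0.98 to −0.46 (adjusted p = 0.0115 from edgeR). Ski ranked 61 among the 18268 genes by p. The decrease was −0.70 on the log2 scale between the female mice and −0.77 between the males, and its adjusted p with sex in the model was 0.00446. The call was lost when Control replicate 2, Prmt1-null replicate 1 or Prmt1-null replicate 2 was left out, with log2FC values of −0.74, −0.75 and −0.61 and adjusted p of 0.0553, 0.0650 and 0.0900. In bulk RNA, fewer cells with a transcript and less of it per cell cannot be told apart.

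Skil (ENSMUSG00000027660, chromosome 3, 31095058 to 31122577, plus strand) was the steadiest of the 8 genes. Its normalized counts were 4117, 4038 and 4083 in Control against 3760, 3679 and 3782 in Prmt1-null libraries, a coefficient of variation of 0.972% and 1.45%. All Prmt1-null values were below all Control values, but the gap was small, with 91.7% of the Control mean and a log2FC of −0.13 (SE 0.0571, adjusted p = 0.357). Since both corepressors were counted in the same libraries, their ratio needs no scaling between libraries. Ski counts were 40.2%, 35.4% and 32.3% of Skil counts in Control against 24.9%, 20.8% and 25.7% in Prmt1-null libraries. The log2 ratio was −1.48 ± 0.16 (SD, n = 3) in Control and −2.08 ± 0.17 (SD, n = 3) in Prmt1-null iGBs, a difference of −0.60 without overlap between the groups (two-sided exact permutation test, p = 0.10, the smallest that 3 against 3 libraries allow). Leaving out a library moved this difference between −0.67 and −0.50.

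Hhex (ENSMUSG00000024986, chromosome 19, 37434810 to 37440731, plus strand) had 2109, 2098 and 2276 normalized counts in Control against 1760, 1997 and 1701 in Prmt1-null libraries. Prmt1-null replicate 2 came closest to the Controls, and the groups did not overlap. The means were 2161 ± 99.7 and 1819 ± 156.5 (SD, n = 3 each), with a log2FC of −0.25, a SE of 0.0858 and a 95% interval from −0.43 to −0.06 (edgeR adjusted p = 0.201). Its corepressor Tle3 (ENSMUSG00000032280, chromosome 9, 61372366 to 61418497, plus strand) had 6401, 6208 and 6529 normalized counts in Control against 5984, 5505 and 5247 in Prmt1-null libraries. Here too the groups were apart, and the Prmt1-null mean was 87.4% of the Control mean. The log2FC was −0.19, with a SE of 0.062 and a 95% interval from −0.33 to −0.06 (edgeR adjusted p = 0.165). Neither gene was called, and the lowest adjusted p among the alternatives with all libraries was 0.0929 for Hhex and 0.0740 for Tle3, both with DESeq2. Of 7 tested of 8 PC markers, 6 were higher in Prmt1-null iGBs and Igj (the J chain gene) was not, with summed levels of 1521 to 1622 CPM against 1346 to 1451 CPM in Control. None of the 7 was called by edgeR, where 3 had an unadjusted p under 0.05. DESeq2 and limma-voom each called 2, against 2.76% of 25707 and 1.36% of 18268 genes. These 2, Slamf7 and Xbp1, are named here after their values were seen. The summed levels of this list did not overlap between the groups. Irf4 and Xbp1 had the most counts in it, with Control means of 26996 and 18660 normalized counts. Gene by gene, 2 of the 7 (28.6%, against 19.9% of all tested genes) did not overlap. The part of PC in the values of Ski, Skil, Hhex and Tle3 was not tested.

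**Figure D2:**
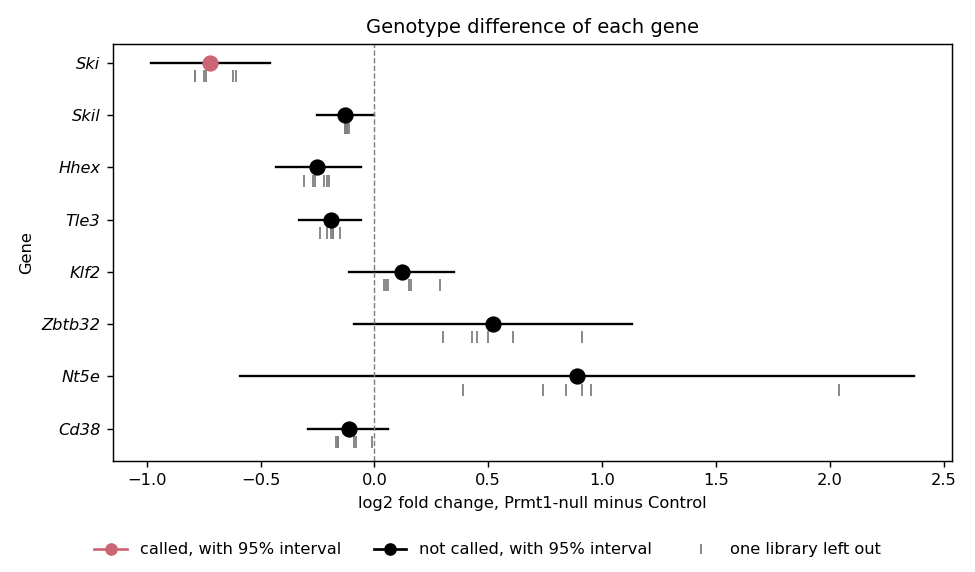
The log2FC of each gene (horizontal axis, Prmt1-null minus Control) with its 95% interval from edgeR, in red where called. Grey ticks are the values with 1 library left out. Ski stands at −0.72, and the interval of Nt5e runs from −0.59 to 2.37.

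The bases before the start of Ski, Hhex and Tle3 are shown because these are genes whose groups did not overlap. They are RefSeq promoter windows of GRCm38.p6 (the assembly of mm10), cut where the earlier of the RefSeq and GENCODE starts begins, and read 5′ to 3′ along the gene. Capitals mark the short words searched on both strands, GTCTG or CAGAC (found in SMAD binding elements), GGGTG or CACCC (the core bound by KLF factors) and ATTAA or TTAAT (a homeodomain core). The Ski stretch is chr4:155222593-155222785 (minus strand), the Hhex stretch chr19:37434591-37434809 (plus strand) and the Tle3 stretch chr9:61372116-61372365 (plus strand).
Ski: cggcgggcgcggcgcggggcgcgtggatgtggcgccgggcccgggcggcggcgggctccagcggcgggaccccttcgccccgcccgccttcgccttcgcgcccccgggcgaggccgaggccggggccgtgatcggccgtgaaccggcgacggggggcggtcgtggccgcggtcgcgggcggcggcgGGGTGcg
Hhex: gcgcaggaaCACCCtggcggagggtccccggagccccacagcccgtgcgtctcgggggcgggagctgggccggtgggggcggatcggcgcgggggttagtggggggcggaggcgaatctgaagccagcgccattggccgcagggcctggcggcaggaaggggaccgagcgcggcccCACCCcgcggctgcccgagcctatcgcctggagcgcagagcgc
Tle3: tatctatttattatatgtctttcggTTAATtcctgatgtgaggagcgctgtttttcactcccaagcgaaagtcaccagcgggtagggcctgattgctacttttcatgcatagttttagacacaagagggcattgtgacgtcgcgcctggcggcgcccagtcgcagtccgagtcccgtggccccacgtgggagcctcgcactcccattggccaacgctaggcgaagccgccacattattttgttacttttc

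In the printed stretches Ski held 1 KLF word, Hhex 2 KLF words and Tle3 1 homeodomain word, and none held the SMAD word. Windows were found for 7 of the 8 genes, with 2 for Zbtb32. In the full windows of 300 bases, Ski held 1 KLF word, Hhex 3 KLF words and Tle3 1 SMAD and 1 homeodomain word. The Nt5e window had the most words of any single window, with 4 KLF and 2 SMAD matches. The 2 windows of Zbtb32 held 2 SMAD and 1 KLF and 1 SMAD and 2 KLF matches. Among all 32851 such windows, 49.6% held the SMAD word, 57.5% the KLF word and 27.1% the homeodomain word, so each is common at this length. The Ski window was 85.3% G and C and held 59 CpG, the Hhex window 75.7% with 37 CpG and the Tle3 window 53.7% with 21 CpG, against a median of 52.7% G and C over all windows. The matches describe letters only.

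Klf2 (ENSMUSG00000055148, chromosome 8, 72319033 to 72321656, plus strand) had the most normalized counts of the 8 genes. Its values were 8034, 8288 and 11265 in Control and 9662, 10925 and 9426 in Prmt1-null libraries. Control replicate 3 exceeded all other libraries, and Controls 1 and 2 lay below all Prmt1-null libraries. The log2FC was 0.12 with a 95% interval from −0.11 to 0.35 (SE 0.107, edgeR adjusted p = 0.680), and it moved to 0.29 without Control replicate 3 (adjusted p = 0.0560), 0.04 without Control replicate 1, 0.05 without Control replicate 2 and 0.06 without Prmt1-null replicate 2. Cd38 (ENSMUSG00000029084, chromosome 5, 43868553 to 43912375, plus strand), which is low on GCBC and high on naive B cells and MBC of mice, had 7340, 7535 and 9128 normalized counts in Control against 7870, 7127 and 7193 in Prmt1-null libraries. Control replicate 3 was again the highest and the groups overlapped. Its log2FC was −0.11, with a 95% interval from −0.29 to 0.06 (SE 0.0802, edgeR adjusted p = 0.590), and it was −0.01 without Control replicate 3 (adjusted p = 0.972) and −0.17 without Control replicate 1 (adjusted p = 0.412).

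Zbtb32 (ENSMUSG00000006310, chromosome 7, 30589681 to 30598909, minus strand) had few counts, 68.8, 92.5 and 156.6 on the normalized scale in Control and 157, 133.8 and 165.4 in Prmt1-null libraries. The Prmt1-null libraries were close together, whereas the Control libraries spread over a wide range, of which replicate 3 reached the Prmt1-null level. The means were 106 ± 45.4 and 152 ± 16.4 (SD, n = 3 each), with a log2FC of 0.52 and a 95% interval from −0.09 to 1.13 (SE 0.285, edgeR adjusted p = 0.462). Without Control replicate 3 the log2FC was 0.91 (adjusted p = 0.105), without Control replicate 1 it was 0.30 (adjusted p = 0.714), and by DESeq2 with a fold change prior it was 0.18. The difference was 0.27 on the log2 scale between female mice and 1.26 between the single males of each genotype.

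Nt5e (ENSMUSG00000032420, chromosome 9, 88327197 to 88372092, plus strand) was barely counted. Raw counts were 2, 53 and 16 in Control replicates 1, 2 and 3 and 45, 43 and 44 in the Prmt1-null libraries, and the exact 95% Poisson intervals of the Control counts, 0.242 to 7.22, 39.7 to 69.3 and 9.15 to 26.0, cover counting error only and not the spread between mice. The 3 Prmt1-null libraries were near equal, and Control replicate 2 was at their level. Control replicate 1, the only male among the Controls, was under the 3 counts taken as detected. On the log2 scale Nt5e differed by 0.57 between female mice and by 4.10 between the single males of each genotype. With sex in the model its log2FC was 1.21. With a mean under 100 normalized counts Nt5e could not be called by the rule used, and its log2FC of 0.89 had a 95% interval from −0.59 to 2.37 (SE 0.689, edgeR adjusted p = 0.627). The value was 0.39 without Control replicate 1, 2.04 without Control replicate 2, 1.47 by limma-voom, 1.35 with the replicate number as a block and 0.09 by DESeq2 with a fold change prior. Markers of other cells also differed among the Control libraries. The summed level of the 7 myeloid markers was 8.92 CPM in Control replicate 1, the lowest of all, and 18.4 CPM in Control replicate 2, the highest, against 16.1 to 16.5 CPM in the Prmt1-null libraries. Of 5 tested, 1 was called, by edgeR, DESeq2 and limma-voom alike. This was Emr1 (the F4/80 gene Adgre1), named here after its values were seen, with 298.3, 351.7 and 401.9 normalized counts in Control against 561.6, 530.5 and 653.9 in Prmt1-null libraries. It rose by 0.73 on the log2 scale (SE 0.147, edgeR adjusted p = 0.0319), and the call was lost when any library but Control replicate 3 was left out (log2FC of 0.63 to 0.80, adjusted p of 0.0727 to 0.141). S100a8 and Lyz2, chosen here after their values were seen, were at 0 in Control replicate 1, at 359.5 and 86.4 normalized counts in replicate 2 and at 35.0 and 24.1 in replicate 3. The other 2, Csf1r and Itgam, did not follow this order, with 70.0, 76.8 and 96.4 and 123.2, 123.9 and 157.7 normalized counts in Control replicates 1, 2 and 3. In Prmt1-null replicates 1, 2 and 3 S100a8 had 28.2, 55.0 and 50.7 and Lyz2 34.2, 20.2 and 12.2 normalized counts. These were below Control replicate 2, whereas Nt5e was at its level there. The 7 T cell markers summed to 6.46 to 8.34 CPM in Control and 7.67 to 11.2 CPM in Prmt1-null libraries, and most of this was Cd5, which B cells can also express. The feeder markers summed to 30.2, 33.1 and 32.5 CPM in Control replicates 1, 2 and 3 and to 31.8, 35.8 and 40.8 CPM in the Prmt1-null libraries. The part of myeloid, T or feeder cells in the Nt5e and Zbtb32 counts was not tested.

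Per kb of exon, Klf2 was the most abundant transcript at a mean of 94.3 CPM per kb over the 6 libraries, followed by Cd38 at 35.9, Tle3 at 9.31, Skil at 7.32, Hhex at 7.14, Ski at 3.85, Zbtb32 at 0.993 and Nt5e at 0.0676. Neighbors in this order did not overlap over the 6 libraries, except that the range of Skil, 6.88 to 7.70, lay within that of Hhex, 6.10 to 8.17. Klf2 stood at the 96.0th percentile of tested genes by this level, Tle3 at the 69.6th and Nt5e at the 3.13th. In Control alone the means of Skil and Hhex, 7.63 and 7.75, stood in the other order, and the ranges of these 2 genes overlapped there as well.

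**Figure D3:**
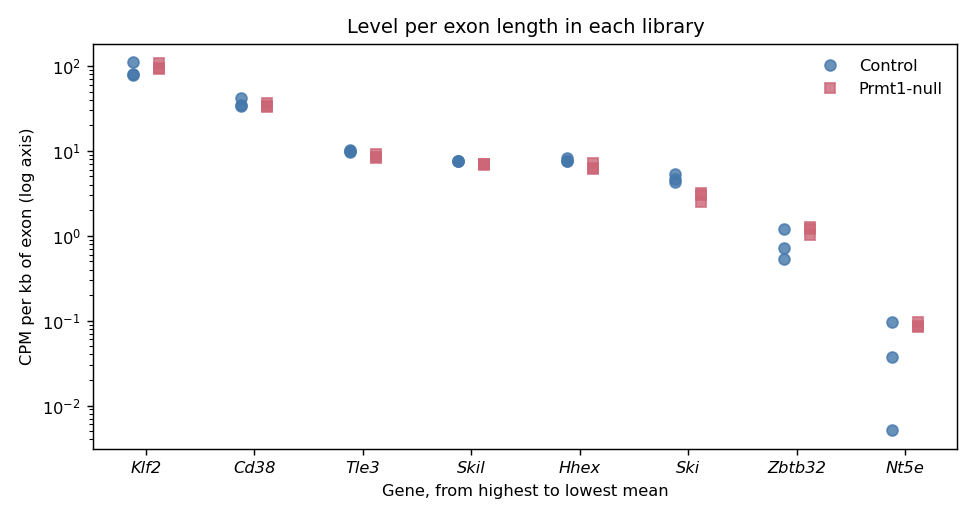
Level of each gene as CPM per kb of exon (vertical log axis) in the 3 Control (blue circles) and 3 Prmt1-null (red squares) libraries, ordered by mean. Klf2 is highest at 94.3 and Nt5e lowest at 0.0676, and the Control values of Nt5e span the widest range.

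The genes whose level followed that of Ski most closely over the 6 libraries were Ganc, Ulk4 and Ccdc15, among 13075 genes with a mean normalized count over 100. After centering each gene on its own mean log2 CPM, their mean absolute differences from Ski were 0.051, 0.063 and 0.067. Since they were chosen for levels that match those of Ski in the same libraries, their fold changes follow from the choice and are given as a description. The log2FC was −0.67 for Ganc, which encodes a glucosidase, −0.69 for Ulk4 and −0.69 for Ccdc15.

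The 8 genes were set beside 117 other genes in 6 lists, of which 106 were tested. Of these, 1 was called higher and 2 lower, or 2.83% against 1.18% of all tested genes, and 29 did not overlap between the groups, or 27.4% against 19.9%. Among 19 tested genes tied to MBC or their precursors, Cd80 was called higher and Cr2 lower, the median log2FC was −0.10, and 12 genes (63.2%, against 19.9% of all tested genes) did not overlap between the groups. Cr2 (ENSMUSG00000026616), the complement receptor CD21, had 8853, 8265 and 7823 normalized counts in Control against 6931, 5136 and 5803 in Prmt1-null libraries. It fell by 0.48 on the log2 scale (SE 0.0911, edgeR adjusted p = 0.0241). A second gene ID of the table carries the same symbol, with 252 to 423 raw counts against 5605 to 9471 for this one, and whether reads are split between them was not tested. Cd80 (ENSMUSG00000075122), a ligand of CD28 that marks an MBC subset, had 2884, 2933 and 2646 normalized counts in Control against 3768, 3703 and 3335 in Prmt1-null libraries. It rose by 0.35 (SE 0.0716, adjusted p = 0.0330). Of the 12 genes of this list whose groups did not overlap, 6 were higher and 6 lower in Prmt1-null libraries. Among the lower ones was Pdcd1lg2, chosen here after its values were seen. It had 1321, 1291 and 1482 normalized counts in Control against 1126, 1180 and 1148 in Prmt1-null libraries. Its log2FC was −0.24 (SE 0.0965, edgeR adjusted p = 0.268). Ccr6, the receptor that marks MBC precursors, had 8625 ± 182.2 and 8370 ± 381.1 normalized counts (SD, n = 3 each), with overlapping groups and a log2FC of −0.04 (adjusted p = 0.807), which ran from −0.07 without Prmt1-null replicate 1 to −0.01 without Prmt1-null replicate 3. The call of Cr2 was lost when Control replicate 1 or 2 or Prmt1-null replicate 2 or 3 was left out, with log2FC values of −0.49 to −0.38 and adjusted p of 0.0652, 0.104, 0.132 and 0.108, and that of Cd80 when any library but Control replicate 3 was left out, with log2FC values of 0.32 to 0.40 and adjusted p up to 0.175.

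For the SKI and SKIL pathway, 28 of 30 genes of TGF-β and BMP receptors, SMADs, SKI partners and SMAD targets were tested. By edgeR 0 were called, 3 had an unadjusted p under 0.05, and the median log2FC was −0.02. DESeq2 called 1 of them, Id3, and limma-voom 0. Id3, an inhibitor of E proteins that SMADs induce, had 1157 ± 115.2 (SD, n = 3) normalized counts in Control against 1491 ± 50.3 (SD, n = 3) in Prmt1-null libraries without overlap, a log2FC of 0.37 (SE 0.10, edgeR adjusted p = 0.102, DESeq2 adjusted p = 0.0155, and 0.0154 to 0.180 over its alternatives with all libraries). Tgfb1, a ligand of the pathway, had a log2FC of −0.18 (SE 0.0673, edgeR adjusted p = 0.239), and of −0.11 without Control replicate 3.

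For the TLE3 and HHEX side, 12 genes of the Groucho family and of its DNA-binding partners were tested, with 0 called by edgeR, DESeq2 or limma-voom, 3 at an unadjusted p under 0.05 and a median log2FC of −0.05. Their smallest p-values belonged to Runx1, with a log2FC of −0.18 (edgeR adjusted p = 0.191), and Tcf7, with 0.26 (adjusted p = 0.201). Of 16 tested KLF family and trafficking genes, 1 was called lower by edgeR, whereas DESeq2 called 3, Klf10, Klf3 and Klf7 (the last named here after its values were seen), and limma-voom called Klf10. Klf10 is a zinc finger factor induced by TGF-β, and fell from 790.4 ± 25.2 to 545.2 ± 54.1 normalized counts (SD, n = 3 each), by 0.54 on the log2 scale (SE 0.118, adjusted p = 0.0447). Its adjusted p was 0.0821 with the replicate number as a block and between 0.0519 and 0.252 with each library left out in turn, with log2FC values of −0.54 with the block and −0.60 to −0.46 with a library left out, so the size stayed close while no such fit kept the call. Klf3, a repressor of the same family, had a log2FC of 0.20 (edgeR adjusted p = 0.109, DESeq2 adjusted p = 0.0346, and 0.0346 to 0.166 over its alternatives with all libraries), and S1pr1, a trafficking receptor tied to KLF2 and chosen here after its values were seen, had overlapping groups.

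Among 17 tested BTB zinc finger genes, 0 were called by edgeR, 4 had an unadjusted p under 0.05, and DESeq2 called 1, Zbtb1. The log2FC of Zbtb1 was −0.22 (SE 0.0586, edgeR adjusted p = 0.0877), and that of Bcl6, the repressor that maintains GCBC, was −0.19 (SE 0.0663, edgeR adjusted p = 0.201), both without overlap between the groups. Without Control replicate 3 that of Bcl6 was −0.12. Beside Nt5e and Cd38, 17 genes of adenosine, nucleotide and NAD handling were tested, with 0 called by edgeR, DESeq2 or limma-voom and 2 at an unadjusted p under 0.05. These were Adk, which removes adenosine, with a log2FC of 0.36 (edgeR adjusted p = 0.231), and Entpd1, the CD39 enzyme that makes the substrate of CD73, with 0.24 (edgeR adjusted p = 0.300). Some genes named above share exon bases with another annotated gene, so that their counts are uncertain where reads were split or counted without strand, namely Itgam (68.7% of its exon length, same strand) and, on the opposite strand, Klf7 (39.3%), Csf1r (15.1%), Slamf7 (9.24%), Klf3 (3.59%), Runx1 (0.881%) and Bcl6 (0.313%).

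**Figure D4:**
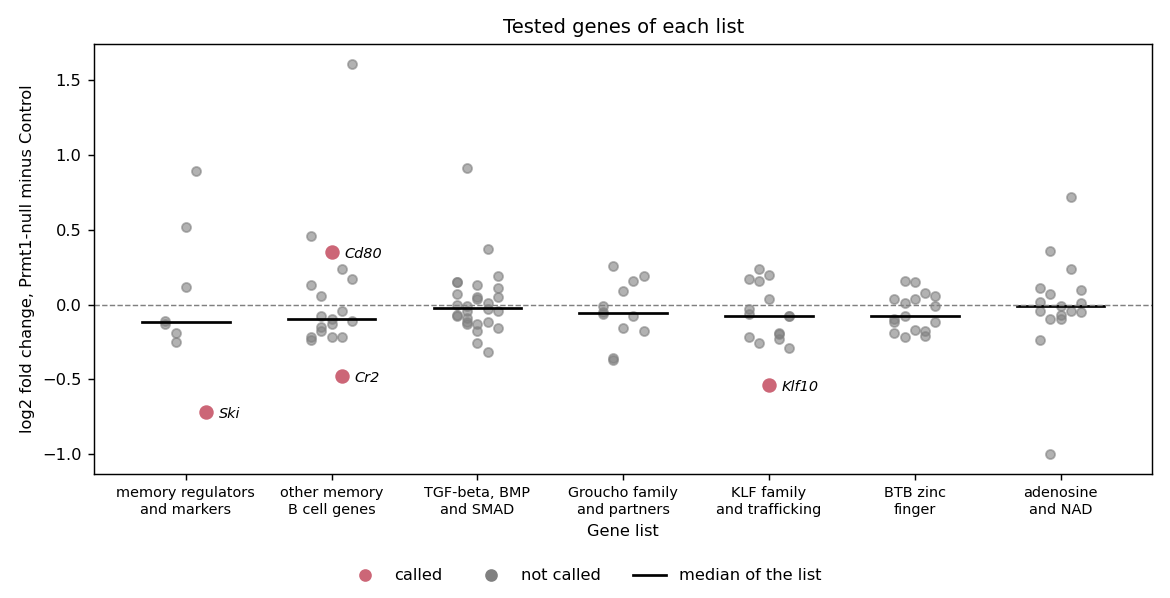
The log2FC (vertical axis, Prmt1-null minus Control) of each tested gene of the 7 lists, with the list median as a bar and called genes in red. The called genes are Ski at −0.72, Cr2 at −0.48, Klf10 at −0.54 and Cd80 at 0.35, and the medians of all lists lie between −0.12 and −0.01.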

How the data were processed

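Total RNA of 6 iGB cultures, depleted of ribosomal RNA, was sequenced. After trimming (Trimmomatic 0.32), the authors mapped reads to mm10 (STAR 2.3.0e) and counted primary alignments to at most 2 locations on exons with featureCounts 1.4.4. The deposited table holds raw counts of each gene, with no scaling or filter. The strand setting is not given in the sources used here. Of 39017 genes, 37607 were matched to GENCODE M21 by ID and 804, Prmt1 among them, by symbol.

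The groups were compared by the quasi-likelihood test of edgeR 4.0.16 (R 4.3.3), without the 398 chromosome Y genes, after filterByExpr (minimum count 10) and TMM normalization. Each mouse gave 1 library. The 8 genes and the lists were chosen with earlier results of these data known. Named are these 8, Prmt1, Ccr6, Cd80, genes of the 6 pathway lists that were called or had a list's 2 smallest p-values, and the 3 closest to Ski. Others are named as chosen after their values were seen or as marker checks. Older symbols were used for Jchain (Igj), Adgre1 (Emr1) and Tle5 (Aes), while Tle7 and Zbtb11 were not matched by symbol. Alternatives were DESeq2 1.42.0 with and without a fold change prior, limma-voom 3.58.1, RLE factors, no filter, the replicate number as a block, sex as a covariate, chromosome Y kept, no minimum mean and each library left out. The methods were tested on simulated data with 200 changed genes. There edgeR, DESeq2 and limma-voom recovered 80.0%, 91.0% and 79.0% of the 1.5-fold changes. Of their calls, 6.77%, 11.2% and 7.33% were unchanged genes, so calls by DESeq2 alone are the least certain.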

Additional observations from a re-analysis of the deposited data

How the results depend on the processing

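With all 6 libraries, Ski was the single gene of the 8 called under every alternative, with log2FC values from −0.72 to −0.56 and adjusted p from 1.24e-07 to 0.0178. Leaving out each library in turn gave 0 to 1 called of the 8, with 2 to 5 of them at an unadjusted p under 0.05, and log2FC values of Ski from −0.79 to −0.61. The number of all genes called moved from 216 to 709 with DESeq2, with or without the prior, to 675 with no filter, and to between 31 (without Prmt1-null replicate 2) and 340 (without Control replicate 3) with a library left out. It was 128, 59, 51 and 77 without Control replicate 1, Control replicate 2, Prmt1-null replicate 1 and Prmt1-null replicate 3. Of the genes in the other 6 lists, 3 were called, against 9 with DESeq2, with or without the prior, 7 with no filter and 0 to 4 with a library left out, where 0 were called without Control replicate 1 or 2 or Prmt1-null replicate 2 or 3 and 16 to 24 had an unadjusted p under 0.05. The causes were not tested. Neither the 8 genes, Prmt1, the 3 closest to Ski nor the genes named from the 6 lists by the rule changed sign under an alternative, nor did Emr1, and other single marker genes were not followed. Same-numbered libraries come from different mice, and their deviations correlated at −0.07, 0.05 and −0.08, so the replicate block was not part of the model. With the block 151 genes were called, with Ski as the single one of the 8 and 2 of the other lists. The low counts of Nt5e and Zbtb32 limit what can be said of them.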

Other observations

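Several further genes of the MBC list, chosen here after their values were seen, had groups that did not overlap. Gpr183, an oxysterol receptor that positions activated B cells, had 18896 ± 884.8 normalized counts (SD, n = 3 each here) in Control against 22342 ± 697.4 in Prmt1-null libraries, with a log2FC of 0.24 (SE 0.0619, edgeR adjusted p = 0.0821). Bach2, a repressor that favors MBC over PC fate, had 12154 ± 762.5 and 10414 ± 502.0 normalized counts and a log2FC of −0.22 (SE 0.0650, adjusted p = 0.124), with 5.40% of its exon length shared with an opposite-strand gene. Both were called by DESeq2, and Gpr183 also by limma-voom. Cxcr3, a chemokine receptor of some MBC, had few counts, 16.7 ± 8.63 in Control against 50.7 ± 7.87 in Prmt1-null libraries on the normalized scale, with a log2FC of 1.61 (SE 0.520, adjusted p = 0.168).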
